A study of Mus musculus with 6 samples.

Results

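The genes described here are 10 regulators of the G1 phase of the cell cycle and of the p53 response, taken by symbol from the 23284 genes listed for each sample: the D cyclins *Ccnd1*, *Ccnd2* and *Ccnd3*, the CDK inhibitors *Cdkn1a*, *Cdkn1b*, *Cdkn2a*, *Cdkn2b* and *Cdkn2c*, and *Trp53* with *Mdm2*. They were measured in ECFP+ osteoblasts (OBs) sorted from ectopic bone from 3 samples at day 10 and 3 at day 14 after a collagen sponge carrying 2.5 μg of BMP-2 was placed under the skin of male *Col2.3*-ECFP mice aged 12 to 16 weeks. In these mice a type I collagen promoter drives the fluorescent protein, so the sort follows the activity of that promoter, and the gate left out dead cells and those positive for CD45. The bone was digested with 0.25% trypsin for 15 min and 0.2% collagenase II for 40 min, the latter done 1 time for the earlier and 2 times for the later samples. Day and number of digestions therefore cannot be told apart. Both groups carried the transgene and received BMP-2, and no library of untreated tissue was compared. The titles place all 3 later samples on day 14, while their descriptions read day 14, 15 and 16 for replicates 1, 2 and 3.

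D cyclins bind CDK4 and CDK6 and start the phosphorylation of the retinoblastoma protein, which releases E2F transcription factors and lets a cell enter S phase. The INK4 proteins (encoded by *Cdkn2a*, *Cdkn2b* and *Cdkn2c*) bind CDK4 and CDK6 directly, whereas the CIP/KIP proteins p21 (*Cdkn1a*) and p27 (*Cdkn1b*) bind cyclin-CDK complexes. The transcription factor p53 (*Trp53*) activates *Cdkn1a* as well as *Mdm2*, whose product marks p53 for degradation, and OBs are known to leave the cell cycle as they mature.

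The values are FPKM, which are normalized to transcript length and to library size. The number of mapped reads per sample, estimated from the steps between low FPKM values, ran from 4557575 to 7789220 with overlapping ranges on the 2 days, and 3 reads per kilobase of usable length correspond to 0.385 to 0.658 FPKM. These floors cover counting error only. Replicate 2 of day 14 stood apart from the other 2 samples of that day. The summed FPKM of 10 chondrocyte markers was 2423 in this sample, against 226 and 159 in replicates 1 and 3 and 741 to 1561 on day 10. *Col2a1*, the defining cartilage collagen gene, had 189 to 373 FPKM on day 10 and 12.1, 688 and 8.75 FPKM in replicates 1, 2 and 3 of day 14. The summed FPKM of 10 myeloid markers was 20.2 in replicate 2, against 268 and 627 in replicates 1 and 3 and 36.6 to 163 on day 10, and *Ptprc*, the gene of CD45, was listed at 0.134 to 2.99 FPKM in the 6 samples. The 7 OB markers were above 0 in every sample, with a summed FPKM of 28368 to 54192 on day 10 and 15669 to 38269 on day 14. All 7 had a lower mean log2 level on day 14, none with an adjusted p under 0.05. The first of them, *Dlx5*, had 7.56 to 9.88 FPKM on day 10 and 9.84 FPKM in replicate 2 of day 14 against 0.979 and 1.01 FPKM in replicates 1 and 3. *Sp7* had 40.1 to 73.7 FPKM on day 10 and 4.09 to 27.9 FPKM on day 14, without overlap (log2 difference −2.34). These 2 of the 7 had an unadjusted p under 0.05 from limma, against 4.40% of all genes tested in that direction. Without replicate 2 of day 14, 6 of the 7 had one, against 13.0% of genes tested in either direction. The same removal gave 8 of the 10 chondrocyte and 9 of the 10 myeloid markers, which were 3 and 0 with all 6 samples. That sample was set apart by its marker values, so these counts are not independent of its choice. The summed FPKM of 8 endothelial markers was 1.53 to 3.76 on day 10 and 4.71 to 9.13 on day 14 (*Pecam1* 0.268 to 1.35 FPKM), and that of 6 osteoclast markers was 446 to 487 and 627 to 675. Most of the osteoclast sum was *Ctsk*, with 403 to 425 FPKM on day 10 and 574 to 614 FPKM on day 14, without overlap (log2 difference 0.53, adjusted p = 0.375 from limma). It was the 1 of the 6 with an unadjusted p under 0.05 from limma, against 5.60% of all genes tested in that direction. In contrast, 4 of the 6 osteoclast markers had a lower mean log2 level on day 14 (median log2 difference −0.49). Without replicate 2 of day 14 this median was 0.19, and *Ocstamp*, *Dcstamp* and *Oscar* had at most 0.980 FPKM in any sample. The first marker, *Acp5*, had 18.3 to 37.7 FPKM. The summed FPKM of 5 erythroid markers was 0.528 to 3.03 in the 6 samples (*Alas2* 0.223 to 2.42 FPKM), with 4 of the 5 at 0 in at least 1 sample. The part of these cells in the results was not tested, and in bulk samples fewer cells of a type and less RNA per cell cannot be told apart.

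None of the 10 genes passed an adjusted p under 0.05 between day 10 and day 14 (limma on log2(FPKM + 0.1), Benjamini-Hochberg over 19526 genes, of which 0.0154% passed). All 10 were above the filter of a mean of 0.1 FPKM. The means of 5 genes were higher and those of 5 lower on day 14 on the log2 scale, with a median log2 difference of 0.017 against −0.043 over all genes tested, and no gene differed by 2-fold. The 95% confidence intervals of *Ccnd1*, *Cdkn1a*, *Cdkn1b*, *Cdkn2a* and *Mdm2* nevertheless include 2-fold differences, so a p that missed the threshold does not show equal levels. In 2 of the 10, *Ccnd3* and *Mdm2*, the samples of the days did not overlap, and the same was true of 14.3% of all genes tested (7.59% higher and 6.67% lower on day 14). *Ccnd3* alone had an unadjusted p under 0.05 from limma, where 10.0% of all genes tested had one. The smallest p of the two-sided exact permutation test for 3 samples against 3 is 0.1.

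**Figure D1:**
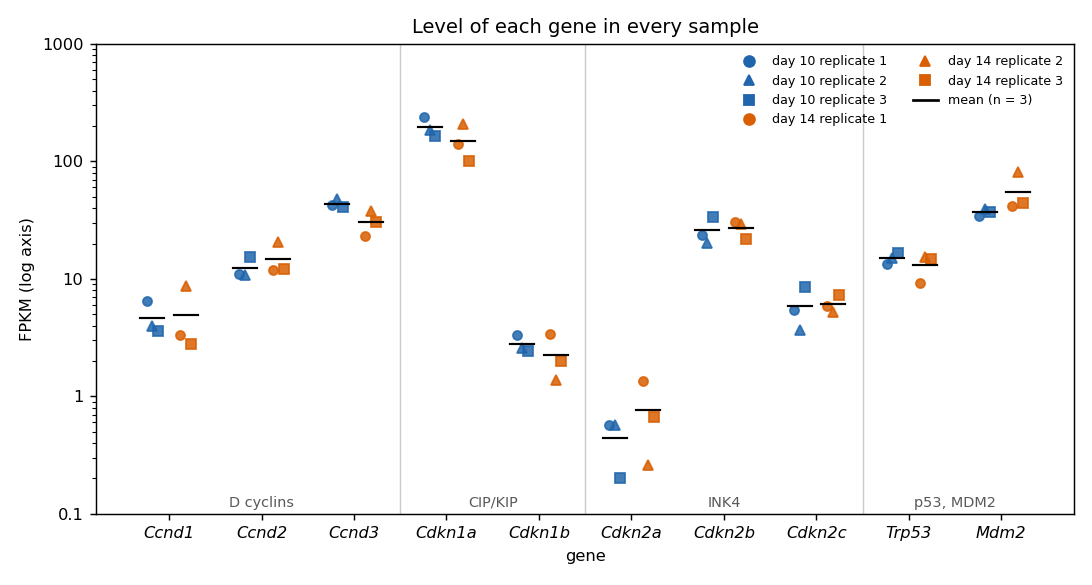
FPKM (log axis) of each of the 10 genes in the 3 samples of day 10 (blue) and the 3 of day 14 (orange), with a symbol for each replicate number and the mean as a line. *Cdkn1a* lies at 101 to 238 FPKM and *Cdkn2a* at 0.200 to 1.36 FPKM, and the colors are separated only for *Ccnd3* and *Mdm2*.

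The order of the levels within a day was led by *Cdkn1a*, with a mean of 196 FPKM on day 10 (rank 288 of the genes listed) and 150 FPKM on day 14 (rank 420). On day 10 it was followed by *Ccnd3*, *Mdm2*, *Cdkn2b*, *Trp53*, *Ccnd2*, *Cdkn2c*, *Ccnd1*, *Cdkn1b* and *Cdkn2a*. The neighbors *Trp53* and *Ccnd2*, as well as *Cdkn2c* and *Ccnd1*, overlapped in their samples, while the other neighbors did not. On day 14 *Mdm2* stood above *Ccnd3* and *Ccnd2* above *Trp53*. On that day *Ccnd3* overlapped with *Cdkn2b*, *Ccnd2* with *Trp53*, *Cdkn2c* with *Ccnd1* and *Ccnd1* with *Cdkn1b*.

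*Ccnd3* was the most abundant D cyclin in each of the 6 samples. It lies on chromosome 17 from 47505051 to 47599691 of mm10. Its level was 42.5, 47.7 and 40.6 FPKM in replicates 1, 2 and 3 of day 10, and 23.2, 37.7 and 30.8 FPKM in replicates 1, 2 and 3 of day 14. The 3 later samples all lay below the 3 earlier ones, and replicate 2 was the closest of them to day 10. The mean was 43.6 ± 3.68 FPKM (SD, n = 3) on day 10 and 30.6 ± 7.25 FPKM (SD, n = 3) on day 14. The log2 difference was −0.54 (standard error 0.20, 95% confidence interval −0.98 to −0.088), with an unadjusted p of 0.0244 and an adjusted p of 0.422 from limma (two-sided exact permutation test, p = 0.1). Without replicate 2 of day 14 the difference was −0.70 (adjusted p = 0.159 from limma). The unadjusted p from limma was 0.0507, 0.0814 and 0.0711 without replicate 1 of day 10, replicate 2 of day 10 and replicate 1 of day 14, and 0.0833 without the mean-variance trend. *Ccnd3* overlaps the opposite-strand gene *Bysl*, listed at 2.06 to 5.30 FPKM, and the handling of strand in the counting is not given in the sources used here.

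The start regions of *Ccnd3* and *Mdm2* are given here because their samples were the ones separated by day, from 250 bases before to 50 bases after the annotated start (RefSeq, GRCm38.p6, the same assembly as mm10), each written 5′ to 3′ on the strand of the gene. RefSeq holds 2 such windows for *Ccnd3* and 1 for *Mdm2*. Capitals mark the GC box GGGCGG on either strand (CCGCCC on the other), a sequence bound by Sp-family factors, which was found in 35.7% of 32851 promoter windows of this length.
Ccnd3, upstream start, plus strand, chr17:47504801-47505100: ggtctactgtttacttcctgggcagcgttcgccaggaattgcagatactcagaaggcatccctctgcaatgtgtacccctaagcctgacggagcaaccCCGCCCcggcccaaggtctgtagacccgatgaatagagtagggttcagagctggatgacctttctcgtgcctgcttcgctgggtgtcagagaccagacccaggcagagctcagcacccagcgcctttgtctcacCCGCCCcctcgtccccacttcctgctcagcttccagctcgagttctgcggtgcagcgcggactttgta
Ccnd3, downstream start, plus strand, chr17:47593217-47593516: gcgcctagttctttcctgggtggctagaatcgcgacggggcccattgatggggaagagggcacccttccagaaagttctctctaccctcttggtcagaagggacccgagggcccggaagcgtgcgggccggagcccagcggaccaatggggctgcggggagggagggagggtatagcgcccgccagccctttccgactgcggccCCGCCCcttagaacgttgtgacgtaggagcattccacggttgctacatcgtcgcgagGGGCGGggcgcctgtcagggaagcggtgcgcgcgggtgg
Mdm2, minus strand, chr10:117710709-117711008: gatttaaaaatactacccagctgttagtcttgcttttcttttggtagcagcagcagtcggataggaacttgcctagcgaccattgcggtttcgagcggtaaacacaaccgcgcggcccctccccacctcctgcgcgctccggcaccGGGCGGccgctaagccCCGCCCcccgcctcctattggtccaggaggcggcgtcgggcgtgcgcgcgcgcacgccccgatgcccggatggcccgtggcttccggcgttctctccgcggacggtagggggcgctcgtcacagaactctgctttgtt
Each of these windows held 2 GC boxes, and they contained 15, 28 and 35 CpG dinucleotides, against a median of 7 over all windows. For 8 of the 10 genes 12 windows were found, and none was found for *Ccnd1* or *Ccnd2*. Of the 12 windows, 9 held a GC box, 1 (that of *Trp53*) held the TATA sequence TATAAA on either strand against 13.6% of all windows, and 1 held the E2F-type sequence TTTCCCGC against 1.07%. The other E2F-type sequences searched on both strands, TTTGGCGC and TTTCGCGC, were found in none of the 12, against 0.514% and 0.323% of all windows.

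*Ccnd2*, on chromosome 6 from 127125162 to 127152193, was the second D cyclin by level. It had 11.0, 10.7 and 15.2 FPKM in replicates 1, 2 and 3 of day 10 and 11.9, 20.4 and 12.1 FPKM in replicates 1, 2 and 3 of day 14. The days overlapped, and replicate 2 of day 14 was the highest of the 6 samples. The difference was 0.24 on the log2 scale (standard error 0.25, 95% confidence interval −0.34 to 0.82, adjusted p = 0.825 from limma), and it was −0.017 without that sample. The opposite-strand gene *9330179D12Rik*, which overlaps *Ccnd2*, was listed at 0.931 to 1.69 FPKM.

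*Ccnd1*, the D cyclin induced by mitogen and Wnt signaling in many cell types, lies on chromosome 7 from 144929931 to 144939925. It had 6.54, 3.95 and 3.58 FPKM in replicates 1, 2 and 3 of day 10 and 3.35, 8.64 and 2.80 FPKM in replicates 1, 2 and 3 of day 14. Replicate 2 of day 14 was the highest sample, and replicates 1 and 3 of day 14 were the lowest. On the log2 scale the difference was −0.059 (standard error 0.43, 95% confidence interval −1.05 to 0.93, adjusted p = 0.986 from limma). Without replicate 2 of day 14 it was −0.55 (adjusted p = 0.565 from limma), and without replicate 3 of that day it was 0.25. *Ccnd1* overlaps *Lto1* on the opposite strand, which was listed under its older symbol *Oraov1* at 2.68 to 5.39 FPKM, close to the level of *Ccnd1* itself. How many reads fall in the shared stretch was not measured, so any part of them in the *Ccnd1* value is not known.

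Within the summed FPKM of the 3 D cyclins, *Ccnd3* made up 70.8%, 76.4% and 68.3% in replicates 1, 2 and 3 of day 10 and 60.3%, 56.4% and 67.3% in replicates 1, 2 and 3 of day 14. Its share was lower in every day 14 sample, although replicate 3 of day 14 lay only slightly below the lowest day 10 sample. *Ccnd2* took 17.2% to 25.6% on day 10 and 26.5% to 31.0% on day 14, also without overlap, and *Ccnd1* took 6.02% to 10.9% and 6.12% to 12.9% with overlap. The sum itself was 60.6 ± 1.57 FPKM (SD, n = 3) on day 10 and 50.3 ± 14.7 FPKM (SD, n = 3) on day 14, with overlapping samples and 66.8 FPKM in replicate 2 of day 14. These shares were chosen after the values were seen and were not tested. They do not depend on scaling between samples, and they do not tell which of the 3 genes differed. *Ccnd3* makes up most of the sum, so its share is not independent of the values given above. The orders differ within day 14, where replicate 2 had the highest *Ccnd3* level (37.7 FPKM) and the lowest share (56.4%). That sample also had the highest *Ccnd2* (20.4 FPKM) and *Ccnd1* (8.64 FPKM) levels.

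**Figure D2:**
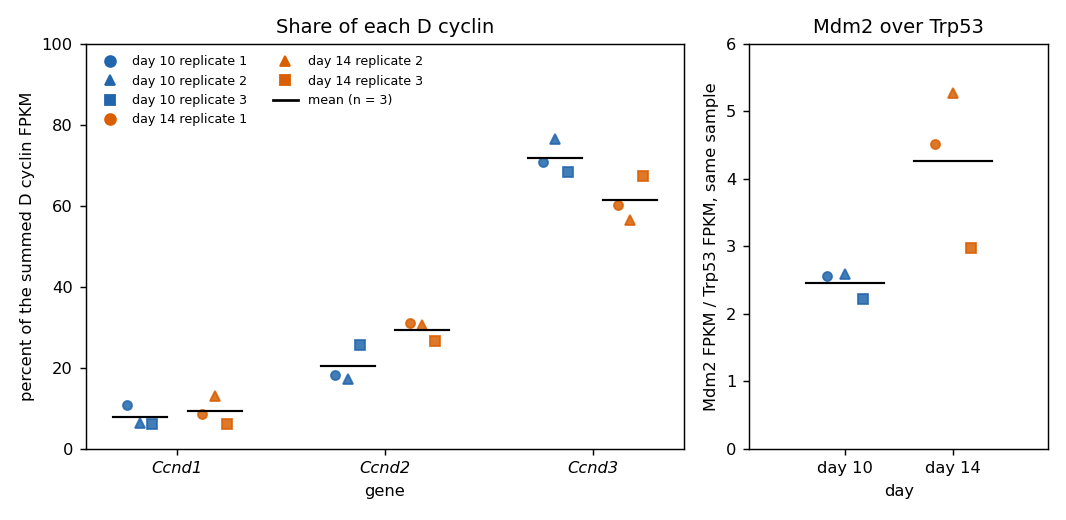
Left, percent of the summed D cyclin FPKM taken by each D cyclin in every sample; right, FPKM of *Mdm2* divided by FPKM of *Trp53* in the same sample, with day 10 in blue, day 14 in orange, a symbol for each replicate number and the mean as a line. The share of *Ccnd3* is 68.3% to 76.4% on day 10 and 56.4% to 67.3% on day 14, and the ratio of *Mdm2* to *Trp53* is 2.22 to 2.59 on day 10 and 2.98 to 5.28 on day 14.

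*Cdkn1a*, which encodes the CDK inhibitor p21 and lies on chromosome 17 from 29090976 to 29100727, had the highest level of the 10 genes in every sample. It had 238, 186 and 164 FPKM in replicates 1, 2 and 3 of day 10 and 140, 208 and 101 FPKM in replicates 1, 2 and 3 of day 14. Replicates 1 and 3 of day 14 were below all day 10 samples, whereas replicate 2 lay among them. The log2 difference was −0.44 (standard error 0.27, 95% confidence interval −1.06 to 0.19), with an adjusted p of 0.654 from limma (two-sided exact permutation test, p = 0.3). Without replicate 2 of day 14 the difference was −0.71, with an unadjusted p of 0.0160 and an adjusted p of 0.237 from limma. It was −0.18 without replicate 3 of day 14 and −0.29 without replicate 1 of day 10, so its size rested on single samples in both directions. In the fit without replicate 2 of day 14, 2 of the 10 genes, *Ccnd3* and *Cdkn1a*, had an unadjusted p under 0.05 from limma, against 13.0% of the genes tested.

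The other CIP/KIP member of the 10, *Cdkn1b*, encodes p27 and lies on chromosome 6 from 134920401 to 134925513. Its level was 3.34, 2.56 and 2.45 FPKM in replicates 1, 2 and 3 of day 10 and 3.38, 1.38 and 2.00 FPKM in replicates 1, 2 and 3 of day 14. Here replicate 2 of day 14 was the lowest of the 6 samples, and the days overlapped. This gave a log2 difference of −0.37 (standard error 0.36, 95% confidence interval −1.20 to 0.46, adjusted p = 0.805 from limma), and it was −0.082 without replicate 2 of day 14, −0.24 without replicate 1 of day 10 and −0.70 without replicate 1 of day 14. Together with *Cdkn1c*, the third CIP/KIP gene, which had 15.3 to 29.6 FPKM on day 10 and 20.7 to 34.0 FPKM on day 14, the family was dominated by *Cdkn1a*. Its share of the summed FPKM of the 3 genes was 83.7% to 92.7% on day 10 and 73.7% to 90.4% on day 14.

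Among the INK4 genes, *Cdkn2b* (p15) was the most abundant. It had 23.8, 20.2 and 33.6 FPKM in replicates 1, 2 and 3 of day 10 and 30.4, 29.4 and 21.8 FPKM in replicates 1, 2 and 3 of day 14. The samples of day 14 fell within the range of day 10, with a log2 difference of 0.092 (standard error 0.22, 95% confidence interval −0.42 to 0.60, adjusted p = 0.940 from limma). *Cdkn2b* made up 52.1% to 58.7% of the summed FPKM of *Cdkn2a*, *Cdkn2b*, *Cdkn2c* and *Cdkn2d* on day 10 and 49.3% to 59.4% on day 14.

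*Cdkn2c* (p18), on chromosome 4 from 109660876 to 109667189, had 5.45, 3.64 and 8.57 FPKM in replicates 1, 2 and 3 of day 10 and 5.84, 5.25 and 7.25 FPKM in replicates 1, 2 and 3 of day 14. The day 14 samples again lay within the range of day 10. In log2 the days differed by 0.13 (standard error 0.31, 95% confidence interval −0.60 to 0.85, adjusted p = 0.944 from limma). It was −0.17 without replicate 2 of day 10.

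*Cdkn2a*, whose alternative first exons give the INK4 protein p16 and the unrelated MDM2-binding protein ARF, was the lowest of the 10 genes on both days. The gene is the neighbor of *Cdkn2b* on chromosome 4, with *Cdkn2a* from 89274471 to 89294653 and *Cdkn2b* from 89306299 to 89311039, both on the minus strand. Its listed level was 0.566, 0.566 and 0.200 FPKM in replicates 1, 2 and 3 of day 10, and the later samples had 1.36, 0.262 and 0.661 FPKM. The 2 highest of the 6 were replicates 1 and 3 of day 14, and the days overlapped. These values correspond to about 1.82, 2.03 and 1.02 reads on day 10 and 4.06, 1.02 and 3.06 reads on day 14 under the depth estimate. The floor of 3 reads for this gene was 0.588 to 1.01 FPKM per sample, so the 3 samples of day 10 and replicate 2 of day 14 were below it. With the estimates rounded to 5 reads on day 10 and 8 on day 14, the ratio per mapped read was 1.66, with a 95% Clopper-Pearson interval of 0.478 to 6.43 that covers counting error only. This interval includes equal levels, and no difference of *Cdkn2a* between the days was detected. Its log2 difference was 0.53 with the pseudocount of 0.1 (adjusted p = 0.858 from limma), and 0.25 and 0.62 with pseudocounts of 1 and 0.01. It was 0.041 without replicate 1 of day 14, 0.15 without replicate 3 of day 10 and 1.05 without replicate 2 of day 14.

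The FPKM of *Cdkn2a* is 1 value for both starts. The windows around these starts and that of *Cdkn2b* are shown because the 2 genes lie side by side while their levels differ most within the INK4 family, with means of 0.444 and 25.9 FPKM on day 10. The coordinates and capitals follow the same conventions as above, and all 3 lie on the minus strand.
Cdkn2a, upstream start, chr4:89294570-89294869: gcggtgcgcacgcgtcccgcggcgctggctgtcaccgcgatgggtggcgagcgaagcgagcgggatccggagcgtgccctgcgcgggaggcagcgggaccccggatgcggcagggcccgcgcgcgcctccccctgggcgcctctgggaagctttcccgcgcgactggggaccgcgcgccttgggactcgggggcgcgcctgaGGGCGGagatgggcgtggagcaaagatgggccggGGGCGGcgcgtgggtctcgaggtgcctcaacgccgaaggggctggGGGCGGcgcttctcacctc
Cdkn2a, downstream start, chr4:89282143-89282442: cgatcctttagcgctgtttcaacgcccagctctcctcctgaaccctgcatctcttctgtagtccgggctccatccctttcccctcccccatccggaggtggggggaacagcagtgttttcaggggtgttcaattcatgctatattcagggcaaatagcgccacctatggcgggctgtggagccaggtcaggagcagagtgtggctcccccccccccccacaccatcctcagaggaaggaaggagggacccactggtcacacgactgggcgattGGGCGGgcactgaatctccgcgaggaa
Cdkn2b, chr4:89310983-89311282: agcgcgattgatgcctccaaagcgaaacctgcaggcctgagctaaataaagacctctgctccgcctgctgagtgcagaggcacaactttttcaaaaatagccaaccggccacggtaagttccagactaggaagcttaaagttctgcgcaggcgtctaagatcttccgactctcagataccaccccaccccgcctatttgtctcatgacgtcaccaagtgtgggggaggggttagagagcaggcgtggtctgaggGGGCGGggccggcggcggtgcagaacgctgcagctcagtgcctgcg
They held 45, 12 and 18 CpG dinucleotides and 3, 1 and 1 GC boxes. The upstream *Cdkn2a* window had more CpG dinucleotides than 98.1% of all promoter windows and was the one of the 12 windows searched with the sequence TTTCCCGC. The downstream window exceeded 60.4% of all windows and that of *Cdkn2b* 70.3%.

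*Trp53*, on chromosome 11 from 69580359 to 69591873, had 13.4, 15.1 and 16.7 FPKM in replicates 1, 2 and 3 of day 10 and 9.23, 15.3 and 14.7 FPKM in replicates 1, 2 and 3 of day 14. Replicate 1 of day 14 was the lowest sample, and the other 2 of that day lay within the range of day 10. The log2 difference was −0.23 (standard error 0.22, 95% confidence interval −0.75 to 0.28, adjusted p = 0.801 from limma). It was −0.0014 without replicate 1 of day 14, −0.16 without replicate 3 of day 10 and −0.36 without replicate 2 of day 14.

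*Mdm2*, the E3 ubiquitin ligase that targets p53, lies on chromosome 10 from 117688875 to 117710758. It had 34.4, 39.0 and 37.2 FPKM in replicates 1, 2 and 3 of day 10 and 41.7, 80.7 and 43.9 FPKM in replicates 1, 2 and 3 of day 14. The 3 later samples all lay above the 3 earlier ones, and replicate 2 of day 14 was far above the other 5. The mean was 36.9 ± 2.31 FPKM (SD, n = 3) on day 10 and 55.4 ± 21.9 FPKM (SD, n = 3) on day 14. The log2 difference was 0.52 (standard error 0.25, 95% confidence interval −0.050 to 1.09), with an unadjusted p of 0.0686 and an adjusted p of 0.540 from limma (two-sided exact permutation test, p = 0.1). Without replicate 2 of day 14 it was 0.22 (adjusted p = 0.653 from limma). The unadjusted p from limma was 0.0384 and 0.0463 without replicate 1 and without replicate 3 of day 14.

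The ratio of *Mdm2* to *Trp53* within a sample was 2.56, 2.59 and 2.22 in replicates 1, 2 and 3 of day 10 and 4.52, 5.28 and 2.98 in replicates 1, 2 and 3 of day 14. It was higher in every day 14 sample, with 2.98 in the lowest of them, replicate 3, against 2.59 in the highest of day 10. The high ratio of replicate 1 came with the lowest *Trp53* value of the 6 samples, and that of replicate 2 with the highest *Mdm2* value. This ratio was chosen after the values were seen and was not tested.

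**Figure D3:**
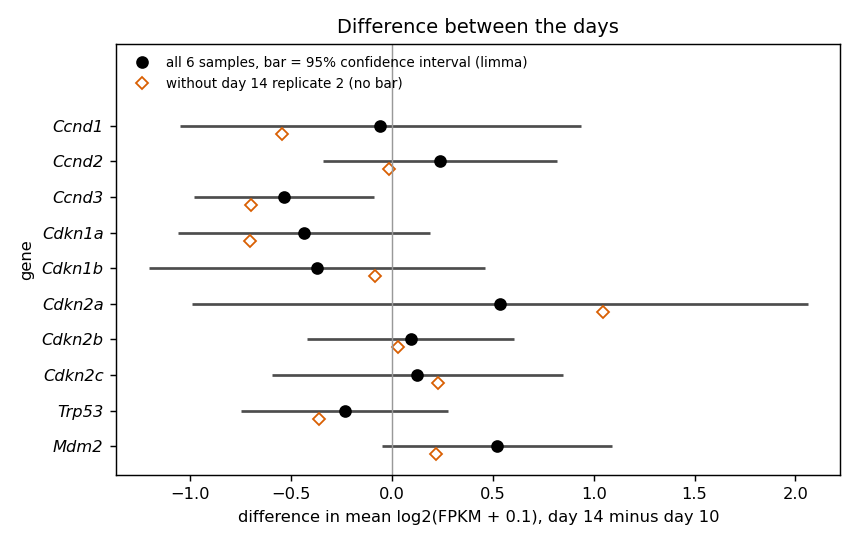
Difference in mean log2(FPKM + 0.1) between day 14 and day 10 for each gene over all 6 samples, with its 95% confidence interval from limma (black), and the same difference without day 14 replicate 2 (open orange diamonds). The interval excludes 0 only for *Ccnd3* (−0.98 to −0.088), before adjustment over the genes tested. The diamonds of *Cdkn2a* (1.05), *Cdkn1b* (−0.082) and *Cdkn2c* (0.23) lie to the right of the values over all samples. Those of the other genes lie to the left, among them *Ccnd1* (−0.55) and *Mdm2* (0.22).

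Replicate 2 of day 14 had the highest value of the 3 day 14 samples in 6 of the 10 genes and the highest of all 6 samples in 3, namely *Ccnd1*, *Ccnd2* and *Mdm2*. The shares of all genes with these traits were not computed, so the counts are not read as particular to the 10 genes. The same sample also carried the high summed level of chondrocyte markers and the low summed level of myeloid markers given above. The part of these in the 3 genes was not tested. Between the highest and the lowest sample, the range was 1.66-fold for *Cdkn2b*, 1.81-fold for *Trp53* and 1.90-fold for *Ccnd2*. It was 6.82-fold for *Cdkn2a*, at a few reads, 3.09-fold for *Ccnd1* and between 2.06-fold and 2.45-fold for *Ccnd3*, *Mdm2*, *Cdkn2c*, *Cdkn1a* and *Cdkn1b*.

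The other genes of the same pathways were described from lists. Of 28 other genes of the G1 machinery (CDKs and their activating kinase, E-type cyclins, the inhibitors *Cdkn1c* and *Cdkn2d*, retinoblastoma family, E2F and DP factors, *Cdc25a* and ubiquitin ligase components), none had an adjusted p under 0.05, 11 had a higher and 17 a lower mean on day 14, and the median log2 difference was −0.18. The one with an unadjusted p under 0.05 from limma, where 10.0% of all genes tested had one, was *Skp2*, the substrate receptor of the ligase that targets p27, with 3.81, 4.73 and 3.58 FPKM on day 10 and 2.26, 3.21 and 1.75 FPKM on day 14. Its log2 difference was −0.76 (standard error 0.29, adjusted p = 0.445 from limma). *Cdk4*, a catalytic partner of the D cyclins, had 117 to 137 FPKM on day 10 and 98.4 to 137 FPKM on day 14, and its relative *Cdk6* had 2.78 to 5.70 and 3.88 to 6.48 FPKM.

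Of 15 regulators of p53, 14 passed the filter and *Trp73* did not. None had an adjusted p under 0.05, 5 had a higher and 9 a lower mean on day 14, and the median log2 difference was −0.11. *Hipk2*, a kinase that phosphorylates p53, was the one of the 14 with an unadjusted p under 0.05 from limma, against 10.0% of all genes tested, with 9.77, 7.76 and 4.23 FPKM on day 10 and 3.75, 4.96 and 3.61 FPKM on day 14 (log2 difference −0.74, adjusted p = 0.497 from limma). Its samples overlapped between the days. *Mdm4*, the partner of MDM2, had 4.38 to 5.98 FPKM on day 10 and 4.18 to 5.18 FPKM on day 14.

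Of 27 p53 target genes outside the 10, none had an adjusted p under 0.05, and 18 had a higher and 9 a lower mean on day 14 (median log2 difference 0.21, which was 0.093 without replicate 2 of day 14 and 0.12 without replicate 1 of day 10). An unadjusted p under 0.05 from limma was found for 5 of the 27, 3 higher and 2 lower on day 14, where 5.60% and 4.40% of all genes tested had one in each direction. *Gadd45a*, a gene of the growth arrest and DNA damage response, had a mean of 13.6 ± 1.34 FPKM (SD, n = 3) on day 10, and it had 21.0, 38.4 and 23.6 FPKM in replicates 1, 2 and 3 of day 14. Its days did not overlap, and the log2 difference was 0.98 (standard error 0.24, adjusted p = 0.305 from limma). *Bbc3*, which encodes the pro-apoptotic protein PUMA, was on the other side, with 5.19, 5.14 and 4.86 FPKM on day 10 and 1.85, 3.24 and 1.84 FPKM on day 14. This is a log2 difference of −1.15 (standard error 0.28, adjusted p = 0.305 from limma), again without overlap. The others were *Plk2* (log2 difference 0.98, overlapping samples), *Eda2r* (0.91) and *Sesn1* (−0.44). The count of 5 was 2 without replicate 1 of day 10, 3 without replicate 2 of day 10 and 2 without the mean-variance trend.

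Of 22 genes of S phase and of G2/M, none had an adjusted p under 0.05, and 20 had a lower and 2 a higher mean on day 14. The median log2 difference was −0.71, against −0.043 over all genes tested, and it was −0.46 without replicate 3 of day 10. In 10 of the 22 the unadjusted p from limma was under 0.05 and the mean lower on day 14, against 4.40% of all genes tested, and in 11 the later samples all lay below the earlier ones, against 6.67%. Both counts included *Bub1*, a kinase of the spindle checkpoint, with 1.88, 1.63 and 2.33 FPKM on day 10 and 0.847, 0.653 and 0.617 FPKM on day 14 (log2 difference −1.34, standard error 0.36, adjusted p = 0.319 from limma). *Aurkb*, a mitotic kinase, had 4.32, 5.40 and 6.38 FPKM on day 10 and 2.75, 3.08 and 2.75 FPKM on day 14 (log2 difference −0.87, standard error 0.24, adjusted p = 0.319 from limma). The other 8 with such a p were *Plk1* (−1.22), *Aurka* (−1.06), *Cdc20* (−0.91), *Ccnb2* (−0.89), *Ccnb1* (−0.82), *Birc5* (−0.79), *Mcm2* (−0.76) and *Top2a* (−0.73), with log2 differences in parentheses. Among the DNA replication genes of the list (*Mcm2* to *Mcm7*, *Pcna*, *Rrm1*, *Rrm2* and *Tyms*), *Mcm2* alone was in either count. The 2 genes with a higher mean on day 14, *Pcna* (0.29) and *Rrm2* (0.38), were in this group. The count of 10 was 3 without replicate 3 of day 10 and 5 without replicate 1 of day 14, and it was 9 without replicate 2 of day 14.

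**Figure D4:**
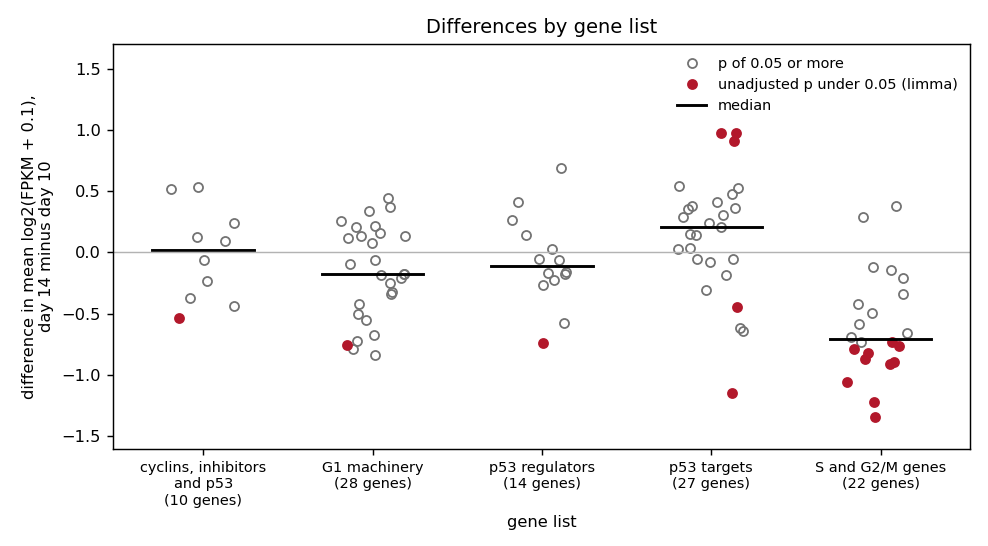
Difference in mean log2(FPKM + 0.1) between day 14 and day 10 for each gene tested in the 10 cyclins, inhibitors and p53 genes and in the 4 other lists, with genes of an unadjusted p under 0.05 from limma in red and the median of each list as a line. The S and G2/M genes have a median of −0.71 and 10 red points below 0, the p53 targets have red points on both sides, and the 10 genes described here have a median of 0.017.

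The patterns of 3 of the 10 genes over the 6 samples were compared with those of 11161 other genes with a mean of at least 1 FPKM, by the root mean square difference of log2(FPKM + 0.1) after each gene was centred on its own mean. For *Cdkn1a* the nearest were *Prss53* (0.047), *Macf1* (0.078) and *Myo10* (0.080). For *Ccnd1*, *Foxc1* (0.12) and *Sun2* (0.12) were near, and both were also highest in replicate 2 of day 14. For *Trp53* they were *Rps24* (0.026), *Bpnt1* (0.075) and *Ssfa2* (0.077). The root mean square of the centred values themselves was 0.40 for *Cdkn1a*, 0.56 for *Ccnd1* and 0.28 for *Trp53*. With 6 samples and this many candidates, close matches are a description only.

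A list of 12 genes that respond to tissue dissociation (immediate early and heat shock genes) was measured beside these, since the days differ in the number of digestions. Its summed FPKM was 4626 to 6453 on day 10 and 4950 to 6433 on day 14, with overlap, and none of the 12 had an adjusted p under 0.05. The members with an unadjusted p under 0.05 from limma were the heat shock genes *Hspa1a* (log2 difference 1.40) and *Hspa1b* (1.56), both higher on day 14 without overlap. Of all genes tested, 5.60% had such a p and a higher mean on day 14, and 7.59% were higher without overlap. Their part in the values of *Cdkn1a*, *Gadd45a* and the other stress-responsive genes was not tested.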

How the data were processed

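ECFP+ OBs of day 10 (n = 3) and day 14 (n = 3) were profiled by RNA-seq. Per the study's methods and the submitters' processing notes, single-end reads of 75 bases were aligned to mm10 (TopHat 2.0.13, with Bowtie2 2.2.3; SAMtools 0.1.19 is also named). Gene-level FPKM from Cufflinks 2.2.1 are the values the authors deposited, 1 file per sample, with no further scaling stated. The gene annotation, the use of strand and the treatment of multi-mapped reads are not given in the sources used here.

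The 6 files list the same 23284 genes, and 25 symbols turned into dates in the file of day 14 replicate 2 were restored by position. Depth was estimated from FPKM values up to 0.3 of 1977 genes with 1 annotated transcript of 1500 to 8000 bases (GENCODE vM21), with a fragment length of 220 bases. Between 74.7% and 79.7% of these values came out within 0.1 of a whole read, so no count test was run on the genes. The interval of *Cdkn2a* alone compared the days by estimated reads, rounded and summed over the 3 samples of a day. Reads per gene use the median length of its coding transcripts.

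Genes with a mean above 0.1 FPKM were compared with limma 3.58.1 in R 4.3.3 (moderated by eBayes, trend in the variance) after the transform log2(FPKM + 0.1), with the day as the only factor. Fold changes are those of FPKM + 0.1. Two-sided exact permutation tests were run with scipy 1.17.1. The fit was tested on simulated data. The labels call the samples biological replicates and do not name the animals. The p-values therefore set the difference between the days against the spread between these samples, which limma moderates with the variance of all genes tested.

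The 10 genes, the lists and the tests were chosen with earlier results of these data known. All 10 genes are named. From each pathway list, the genes with an unadjusted p under 0.05 were named, from each marker list its first gene, and for *Ccnd1*, *Cdkn1a* and *Trp53* the 3 nearest genes in pattern, of which 1 is not reported here. *Cdk4*, *Cdk6*, *Cdkn1c*, *Cdkn2d*, *Cdc25a*, *Mdm4*, *Trp73*, *Sp7*, *Ctsk*, *Ocstamp*, *Dcstamp*, *Oscar*, *Hspa1a*, *Hspa1b* and the overlapping genes were named in addition, after their values were seen. The same holds for the DNA replication genes without an unadjusted p under 0.05. Alternatives were the pseudocount, the filter, the scaling, the variance model, the replicate number as a block and the removal of 1 of the 6 samples at a time.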

Additional observations from a re-analysis of the deposited data

How the results depend on the processing

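None of the 10 genes reached an adjusted p under 0.05 from limma in any of the 13 alternatives (lowest 0.159), and 122 of 129 values of single genes kept their direction. The 7 that did not were *Ccnd1*, *Ccnd2*, *Cdkn2b* and *Cdkn2c* with 1 sample left out, and the log2 difference then ran from −0.55 to 0.25 for *Ccnd1*, from −0.017 to 0.40 for *Ccnd2*, from −0.067 to 0.30 for *Cdkn2b* and from −0.17 to 0.43 for *Cdkn2c*. The ranges that kept their sign were −0.71 to −0.18 for *Cdkn1a*, −0.70 to −0.082 for *Cdkn1b*, 0.041 to 1.05 for *Cdkn2a*, −0.36 to −0.0014 for *Trp53*, −0.70 to −0.35 for *Ccnd3* and 0.22 to 0.69 for *Mdm2*. The reversed values were 0.20, 0.12 and 0.25 for *Ccnd1* without day 10 replicate 1, day 14 replicate 1 and day 14 replicate 3, −0.017 for *Ccnd2* without day 14 replicate 2, −0.067 for *Cdkn2b* and −0.17 for *Cdkn2c* without day 10 replicate 2, and −0.0019 for *Cdkn2c* without day 14 replicate 3. With 1 sample left out, the number of genes with an adjusted p under 0.05 ran from 3 to 76, the latter without day 14 replicate 2. The number of the 10 genes with an unadjusted p under 0.05 ran from 0 to 2, that of the G1 machinery from 0 to 4, of the p53 regulators from 0 to 1, of the p53 targets from 2 to 5 and of the S and G2/M genes from 3 to 12. The median log2 difference ran from −0.18 to −0.018 for the G1 machinery, from −0.21 to −0.023 for the p53 regulators, from 0.093 to 0.24 for the p53 targets and from −0.86 to −0.46 for the S and G2/M genes. Without the mean-variance trend, such a p was found for 0 of the 10 genes, 2 of the G1 machinery, 0 p53 regulators and 2 p53 targets. It was found for 2 genes of the G1 machinery with a pseudocount of 0.01 or a mean above 1 FPKM (there with a median of −0.093), and for 0 p53 regulators with a pseudocount of 1, a mean above 1 FPKM or no filter. The cause was not tested.

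Both days use the replicate numbers 1, 2 and 3. After the mean of its day was removed, each sample correlated across genes with its same-numbered partner at r of 0.0580, −0.00584 and 0.0887, and the numbers were not taken as a pairing. In a fit with a block for the replicate number, 2 of the 10 genes (*Ccnd3* and *Mdm2*) and 2 genes of the G1 machinery had an unadjusted p under 0.05, and 2 of all genes an adjusted p under 0.05 from limma. Replicates 1 and 3 of either day correlated best with their own number, at the low values given, and replicate 2 of either day did not.

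With 3 samples a day the confidence intervals of the 10 genes are wide, and *Cdkn2a* also rests on few reads.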
